A study of Mus musculus with 2 samples.

Results

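Iron uptake and iron storage were followed through red cell formation in mouse fetal liver at the level of 9 genes: *Tfrc*, *Tfr2*, *Slc11a2*, *Steap3*, *Fth1*, *Ftl1*, *Ireb2*, *Aco1* and *Ncoa4*. They were taken by symbol from the 27998 genes of the deposited matrix, and each symbol matched 1 row. *Tfrc* was also compared cell by cell with its own protein, CD71, which was counted with a barcoded antibody on the same cells. The cells came from pooled livers of C57BL/6 embryos at e13.5, for which the labels name no mutation or drug, and were measured by CITE-seq, which reads the transcripts and the antibody barcodes of single cells. Cells carrying Ter119, a surface antigen of maturing red cells, were removed with magnetic beads, and as many Ter119+ as Ter119- cells were then pooled again, so the number of cells in a stage does not describe the liver. There was 1 cDNA library and 1 antibody library of the same 7863 cells, without replicates. No test between stages was possible. All intervals are 95% intervals for counting error, and do not cover differences between embryos, libraries or gates.

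A red cell precursor takes up iron bound to transferrin. The transferrin receptor, encoded by *Tfrc*, carries it into endosomes, where Steap3 reduces the iron and the transporter DMT1, encoded by *Slc11a2*, moves it to the cytosol. Most of it goes to the mitochondria for heme, and iron not used is held in ferritin, a shell of heavy chains (*Fth1*) and light chains (*Ftl1*) that Ncoa4 delivers to lysosomes for breakdown. Tfr2, the second transferrin receptor, senses iron-loaded transferrin and associates with the erythropoietin receptor. The iron regulatory proteins, encoded by *Aco1* and *Ireb2*, bind hairpins called iron-responsive elements when iron is scarce. Bound in a 5′ untranslated region (UTR) they block translation of ferritin, and bound in the 3′ UTR of *Tfrc* they protect the transcript from decay.

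The hairpins are shown first because they are the sequences through which iron is known to act on the receptor and ferritin transcripts. The search took C, 5 bases, CAGTGN and 5 bases that pair with the first 5 (G-T pairs allowed), on the transcript strand. In the GENCODE M1 coding transcripts of build mm9, 8 of the 9 members were found by name, all except *Tfr2*. The motif lay in a UTR of 3 members. The rule allows no unpaired base among the 5 pairs, so it misses hairpins of another shape. Members without a match, among them *Slc11a2*, can still carry an element. Over all 22611 genes with a coding transcript, it lay in the 5′ UTR of 0.146% and in the 3′ UTR of 0.548%. Each sequence is 29 bases long and runs 5′ to 3′ on the transcript, with the loop in capitals. A match describes letters and not a site in use.
Fth1 5′ UTR, chr19:10057222-10057250, plus strand: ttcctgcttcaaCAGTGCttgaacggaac
Ftl1 5′ UTR, chr7:52715149-52715177, minus strand: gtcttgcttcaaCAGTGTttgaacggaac
Tfrc 3′ UTR, chr16:32631305-32631333, plus strand: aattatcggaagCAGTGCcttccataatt
Tfrc 3′ UTR, chr16:32631684-32631712, plus strand: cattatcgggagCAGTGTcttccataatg
Tfrc 3′ UTR, chr16:32631749-32631777, plus strand: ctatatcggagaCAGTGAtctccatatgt
Tfrc 3′ UTR, chr16:32631796-32631824, plus strand: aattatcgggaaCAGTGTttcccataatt

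The ferritin genes carried 1 match each, upstream of the coding sequence, and *Tfrc* carried 4, all downstream of it. Among the other genes of a list of iron genes, those with the motif in a UTR included *Slc40a1*, the iron exporter ferroportin, *Alas2*, the first enzyme of heme synthesis in red cells, and *Bola3*, an iron-sulfur cluster factor. The barcode that stood for CD71 protein was CGAAGAAGGAGT, that for Ter119 was GAGGCGATTGAT, and that for the non-specific IgG control was CGGAGTAGTAAT.

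On build mm10, to which the authors mapped the reads, the RefSeq table (GRCm38.p6), matched by symbol, places *Tfrc* at chr16:32608896-32632794, *Tfr2* at chr5:137569822-137588081, *Slc11a2* at chr15:100387898-100424209 and *Steap3* at chr1:120226414-120271081. *Fth1* lies at chr19:9980600-9985111, *Ftl1* at chr7:45457944-45459886, *Ireb2* at chr9:54862658-54912534, *Aco1* at chr4:40143265-40199009 and *Ncoa4* at chr14:32159879-32179855. These positions and those of the hairpins belong to different builds and cannot be subtracted from each other.

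After filters on genes, mitochondrial transcripts and doublets, 7244 cells remained, with a median of 5707 unique molecular identifiers (UMIs, each a counted transcript molecule) per cell over all deposited cells and a range of 2510 to 38047. Of these, 6424 carried little of 5 antibodies to other lineages and were gated on CD71 and Ter119 into S0-low (1510 cells, little of either antigen), S0-medium (1054, some CD71), S1 (612, high CD71), S2 (1295, CD71 high and Ter119 intermediate), S3 (838, both high) and, with high Ter119 and less CD71, S4-like (454) and S5-like (444). A further 217 Ter119-intermediate cells with less CD71 lay below S2. Because CD71 is the protein of *Tfrc*, its level by stage is partly set by the gates. Globin transcripts rose from 1.05% of UMIs in S0-low to 2.80% in S1, 13.1% in S2, 37.6% in S3 and 68.5% in S5-like. A level is given as the mean over cells of CPM (the UMIs of a gene per 1000000 UMIs of the cell) and, where it matters, of non-globin CPM (the same per 1000000 UMIs outside the globin genes). S0-low was mixed: 20.9% of its cells fell in clusters named as other cell types by their markers, and 17.4% in an unnamed cluster led by *Lsp1* and *Cd34*. The summed level of 14 hepatocyte markers was 8372 CPM in S0-low and 932 CPM in S0-medium.

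**Figure D1:**
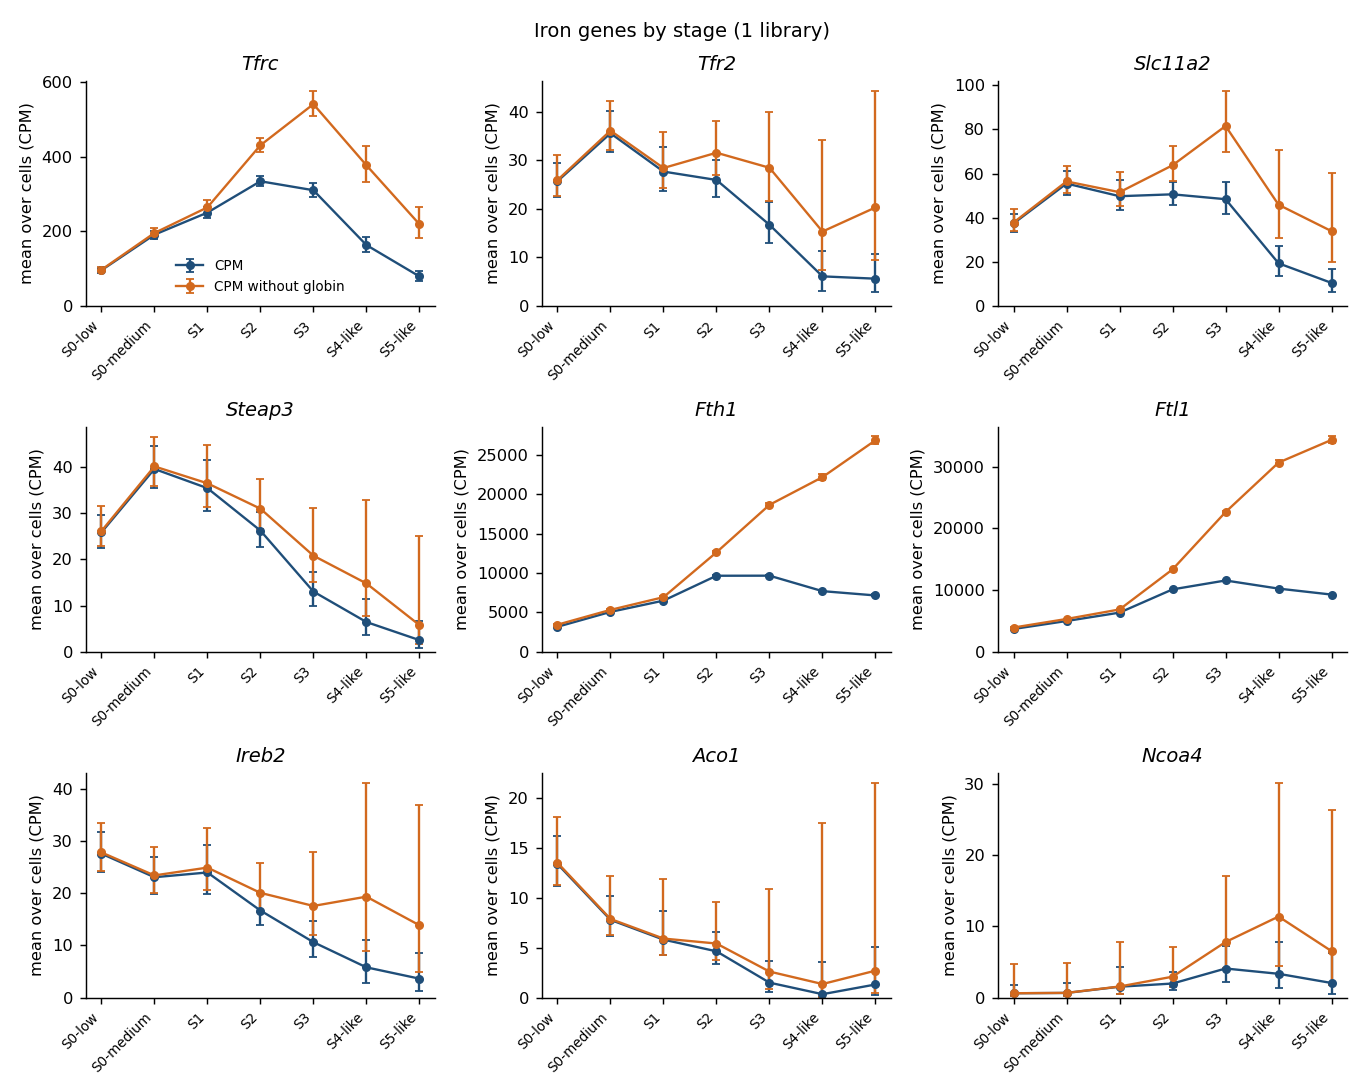
Level of each of the 9 iron genes (y axis, mean over cells in CPM, starting at 0) in the 7 stages in the order of differentiation (x axis), on all UMIs and on UMIs outside the globin genes, with bars for the 95% counting interval. *Tfrc* peaked at 334 CPM in S2 and was back to 79.2 CPM in S5-like, while *Fth1* and *Ftl1* stayed at 7150 and 9280 CPM in S5-like.

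*Tfrc* climbed from the earliest progenitors to the S2 stage and then fell away. Its level was 95.6 CPM (89.0 to 103) in S0-low cells, 191 (180 to 202) in S0-medium, 250 (235 to 266) in S1, 334 (320 to 348) in S2, 310 (292 to 329) in S3, 163 (145 to 184) in S4-like and 79.2 (66.5 to 94.0) in S5-like. In the order of the levels, the intervals of S5-like and S0-low overlapped, as did those of S4-like and S0-medium and those of S3 and S2. Counted outside globin, *Tfrc* went on rising into S3, from 96.8 non-globin CPM in S0-low to 430 in S2 and 540 in S3, and was 377 in S4-like and 219 in S5-like. In molecules per cell it was highest in S1 and S2, at 2.32 and 2.28 UMIs, and fell to 0.329 UMIs in S5-like. The peak lay at S2 or S3 by concentration, depending on the denominator, and at S1 or S2 by number.

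A step between neighbouring stages was called higher or lower where the ratio of mean CPM passed 1.5-fold and the gene had at least 50 UMIs over both stages; "rose" and "fell" below refer to this size only. *Tfrc* rose 2.0-fold (1.83 to 2.18) from S0-low to S0-medium, and 1.41-fold, short of the call, without the cells of the other named and the unnamed clusters. The following steps were smaller, with ratios of 1.31 from S0-medium to S1, 1.34 from S1 to S2 and 0.928 (0.865 to 0.996) from S2 to S3. From S3 to S4-like it fell to 0.526 (0.463 to 0.599), and from S4-like to S5-like to 0.485 (0.396 to 0.595). On non-globin CPM these ratios were 0.697, short of the call, and 0.581.

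*Tfr2* followed another course, on CPM with its highest value in S0-medium and its lowest at the end. It stood at 25.7 CPM (22.5 to 29.4) in S0-low cells, 35.6 (31.7 to 40.1) in S0-medium, 27.7 (23.7 to 32.8) in S1, 26 (22.4 to 30.1) in S2, 16.7 (13.0 to 21.5) in S3, 6.10 (3.13 to 11.4) in S4-like and 5.62 (2.80 to 10.8) in S5-like. S0-low, S1 and S2 did not differ beyond their counting intervals, nor did S4-like and S5-like. Without the other named and unnamed clusters S0-low was at 33.3 CPM (28.8 to 38.7), an interval that overlapped that of S0-medium. On non-globin CPM the lowest value was in S4-like, at 15.3 (7.49 to 34.2), against 20.3 (9.48 to 44.3) in S5-like. The ratio of S1 over S0-medium was 0.778 (0.645 to 0.939). From S3 to S4-like *Tfr2* fell to 0.365 (0.197 to 0.677), and from S2 to S3 to 0.644 on CPM, a change that was 0.902 on non-globin CPM and turned to 1.07 with size factors.

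Of the endosomal pair, *Slc11a2* held a plateau from S0-medium to S3 on CPM and *Steap3* did not. On CPM *Slc11a2* was at 37.4 (33.5 to 41.9) in S0-low, or 50.5 (44.7 to 57.1) without the other named and unnamed clusters. It was at 55.5 CPM (50.4 to 61.3) in S0-medium and stayed at 49.8, 50.6 and 48.4 CPM in S1, S2 and S3 with overlapping intervals. It fell to 19.3 (14 to 27) in S4-like and 10.4 (6.28 to 16.9) in S5-like. The ratios of the last falls were 0.400 (0.279 to 0.572) and 0.540 (0.309 to 0.944) on CPM, and 0.563 and 0.739 (0.408 to 1.34), the second short of the call, on non-globin CPM. *Steap3* was at 25.8 CPM (22.5 to 29.6) in S0-low cells, 39.5 (35.3 to 44.4) in S0-medium, 35.4 (30.4 to 41.5) in S1, 26.2 (22.8 to 30.3) in S2, 13.0 (9.81 to 17.3) in S3, 6.44 (3.53 to 11.5) in S4-like and 2.53 (0.864 to 6.70) in S5-like. On CPM the reductase was already lower at S3, where the transporter was not. The ratio from S2 to S3 was 0.497 (0.369 to 0.670) for *Steap3* against 0.956 (0.803 to 1.14) for *Slc11a2*, and on non-globin CPM the ratios were 0.672 and 1.28. From S3 to S4-like *Steap3* fell to 0.494 on CPM, with 0.711 on non-globin CPM and 1.01 with size factors.

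Both ferritin chains were among the abundant transcripts, with a UMI in 99.2% or more of the cells of every stage after each cell was thinned to 2000 UMIs. *Fth1* stood at 3173 CPM (3135 to 3213) in S0-low cells, 5062 (5009 to 5116) in S0-medium, 6491 (6415 to 6568) in S1, 9650 (9576 to 9724) in S2, 9659 (9560 to 9759) in S3, 7696 (7568 to 7825) in S4-like and 7150 (7025 to 7277) in S5-like. S2 and S3 were the only neighbours in this order that did not differ beyond counting error. *Ftl1* stood at 3699, 4994, 6352, 10123, 11567, 10249 and 9280 CPM in the same order. It rose 1.59-fold (1.57 to 1.62) from S1 to S2, where the 1.49-fold ratio of *Fth1* was just short of the call. After S3 the direction depended on the scale. From S3 to S5-like *Fth1* was at 0.740 and *Ftl1* at 0.802 of their levels on CPM, but at 1.44 and 1.52 on non-globin CPM, and at 0.593 and 0.656 in UMIs per cell.

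*Ncoa4*, the receptor that sends ferritin to lysosomes, gave only 4 to 16 UMIs per stage and 79 in all cells, too few for a call at any step. Its ratio of S3 over S0-low, from 7 and 15 UMIs, was 6.72 (2.47 to 18.3). Its count may also differ from its level, because parts of its transcript ends occur elsewhere in the genome. The last 500 bases of its 3343-base transcript were found whole elsewhere in the mm9 genome, measured as 31-base words (100%), and those of its longest transcript to 8.94%. *Gm6768*, a pseudogene that shares the ends of shorter *Ncoa4* transcripts, held 19 UMIs. The other place that matched the 3343-base transcript held no annotated gene. Reads that match more than 1 gene can be lost from a count, and how many were lost here was not tested. The same measure gave 80.2% for *Ftl1*, whose copy *Gm10116* is in the matrix, 36.4% for *Fth1*, 23.2% for the longest *Aco1* transcript and 0% for the longest transcripts of *Tfrc*, *Slc11a2*, *Steap3* and *Ireb2*. *Gm10116* kept to between 0.0401 and 0.0420 UMIs per *Ftl1* UMI in all 7 stages.

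Both iron regulatory protein genes were low, and on CPM lower still at the late stages. *Ireb2* was at 27.6 CPM (24.1 to 31.7) in S0-low cells, 23.1 (19.9 to 27.0) in S0-medium, 24.0 (19.9 to 29.3) in S1, 16.7 (13.9 to 20.2) in S2, 10.6 (7.70 to 14.7) in S3, 5.80 (2.84 to 11.1) in S4-like and 3.64 (1.28 to 8.62) in S5-like. Its first 3 values did not differ beyond counting error. It fell to 0.637 (0.450 to 0.901) from S2 to S3, against 0.875 on non-globin CPM and 1.10 with size factors, and to 0.546 (0.278 to 1.07) from S3 to S4-like, against 1.10 on non-globin CPM. *Aco1* went from 13.4 CPM (11.1 to 16.2) in S0-low to 7.79 (6.17 to 10.1) in S0-medium, 5.81 (4.24 to 8.71) in S1 and 4.64 (3.34 to 6.58) in S2, then to 1.5 (0.608 to 3.65) in S3, with 1 UMI in S4-like and 4 in S5-like. It fell at the first step, to 0.582 (0.439 to 0.771), where leaving out the other named clusters gave 0.738. From S2 to S3 the ratio was 0.323 (0.146 to 0.714), and 0.481 on non-globin CPM.

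Step by step, the calls of members stand beside the share of all genes called. From S0-low to S0-medium, 8 members had the 50 UMIs, of which 3 rose (*Tfrc*, *Steap3* and *Fth1*) and 1 fell (*Aco1*). Of all genes with that many UMIs, 5.67% were higher and 21.8% lower at this step. The same members were called on non-globin CPM, beside 5.95% of genes higher and 21.6% lower. The *Steap3* ratio of 1.53 (1.29 to 1.82) and the *Fth1* ratio of 1.60 (1.57 to 1.62) came to 1.07 and 1.36 without the other named and unnamed clusters. As given above, the *Tfrc* ratio was also short of the call without these clusters, and the *Aco1* ratio without the other named clusters. None of these calls therefore held in S0-low cells freed of other clusters. From S0-medium to S1 none of the 8 members was called, beside 2.98% of all genes higher and 11.2% lower, nor on non-globin CPM, beside 3.25% and 10.6%. From S1 to S2 *Ftl1* alone rose on CPM and no member fell, while 5.31% of genes were higher and 38.9% lower. On non-globin CPM 3 members rose, *Tfrc* (1.63-fold), *Fth1* (1.82-fold) and *Ftl1* (1.95-fold), beside 9.55% of genes higher and 26.5% lower.

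From S2 to S3, 4 of 8 members fell on CPM (*Tfr2*, *Steap3*, *Ireb2* and *Aco1*, of which *Tfr2* and *Ireb2* turned with size factors) and none rose, beside 4.00% of genes higher and 63.5% lower. On non-globin CPM 1 fell (*Aco1*) and 1 rose (*Ftl1*, 1.70-fold), beside 11.0% higher and 26.7% lower. From S3 to S4-like, 5 of the 7 members with enough UMIs fell on CPM (*Tfrc*, *Tfr2*, *Slc11a2*, *Steap3* and *Ireb2*, of which *Steap3* turned with size factors and *Ireb2* on non-globin CPM), beside 1.29% of genes higher and 62.7% lower. On non-globin CPM 2 fell (*Tfr2* and *Slc11a2*) and none rose, beside 8.93% higher and 20.5% lower. From S4-like to S5-like, 2 of 4 fell on CPM (*Tfrc* and *Slc11a2*), beside 0.923% higher and 28.9% lower, and 1 on non-globin CPM (*Tfrc*), beside 5.97% higher and 10.1% lower. The globin share of UMIs moved with these calls. The median ratio over all genes was 0.587, 0.598 and 0.773 at the last 3 steps on CPM, and 0.826, 0.889 and 0.972 on non-globin CPM. Set against those medians, the ferritin ratios of 1.0 (*Fth1*) and 1.14 (*Ftl1*) from S2 to S3 lay above, and the *Tfrc* ratio of 0.485 at the last step lay below.

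*Tfrc* and CD71 protein were then compared within each Ter119 class, in 10 equal groups of cells ordered by CD71 count. In Ter119-low cells (3176), *Tfrc* went up in every group, from 34.9 CPM (25.6 to 47.1) in the lowest, with a median of 14 CD71 counts, through 98.1 CPM in the third and 180 in the sixth to 275 CPM (253 to 298) in the highest, with a median of 1493. The ratio of the highest to the lowest group was 7.88 (5.85 to 10.6), and 110 of the 6827 genes with 50 UMIs had a larger one. At this contrast 17.6% of genes were higher and 28.5% lower. In the lowest group 37.1% of cells belonged to other named clusters. Without these and the unnamed cluster the ratio was 3.24 (2.65 to 3.96). The 10 groups were drawn again from the remaining cells, so their CD71 borders differ from those above.

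In Ter119-high cells (1736) *Tfrc* ran from 47.1 CPM (31.7 to 68.5), at a median of 60.5 CD71 counts, to 404 CPM (364 to 449) at 2698 counts, a ratio of 8.58 (5.90 to 12.5). On non-globin CPM that ratio was 4.11. In this class 89.3% of genes were higher and 2.60% lower on CPM, and the median ratio of all genes was 3.29. In Ter119-intermediate cells (1512) the range was narrow, from 232 CPM (194 to 276) at 393.5 counts to 372 CPM (336 to 413) at 2857 counts. The ratio was 1.61 (1.32 to 1.96), and 1.18 on non-globin CPM, while 53.9% of genes were higher and 3.40% lower. The median ratio of all genes was 1.54 on CPM, and 1762 of 3879 genes had a larger ratio than *Tfrc*, so it did not stand out here. Across single cells the rank correlation of *Tfrc* CPM with CD71 was 0.44, 0.14 and 0.43 in the Ter119-low, Ter119-intermediate and Ter119-high cells, which share 1 library. Total UMIs correlated with CD71 at 0.30, 0.36 and 0.25 in the same cells. On non-globin CPM the 3 correlations of *Tfrc* with CD71 were 0.44, 0.10 and 0.35. Within single stages the correlation on CPM was 0.37 in S0-low, a mixed stage. In the other stages it lay between 0.05 (S4-like) and 0.20 (S5-like). The stages are cut on CD71, which narrows its range within each, so these values cannot show where the relation lies.

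**Figure D2:**
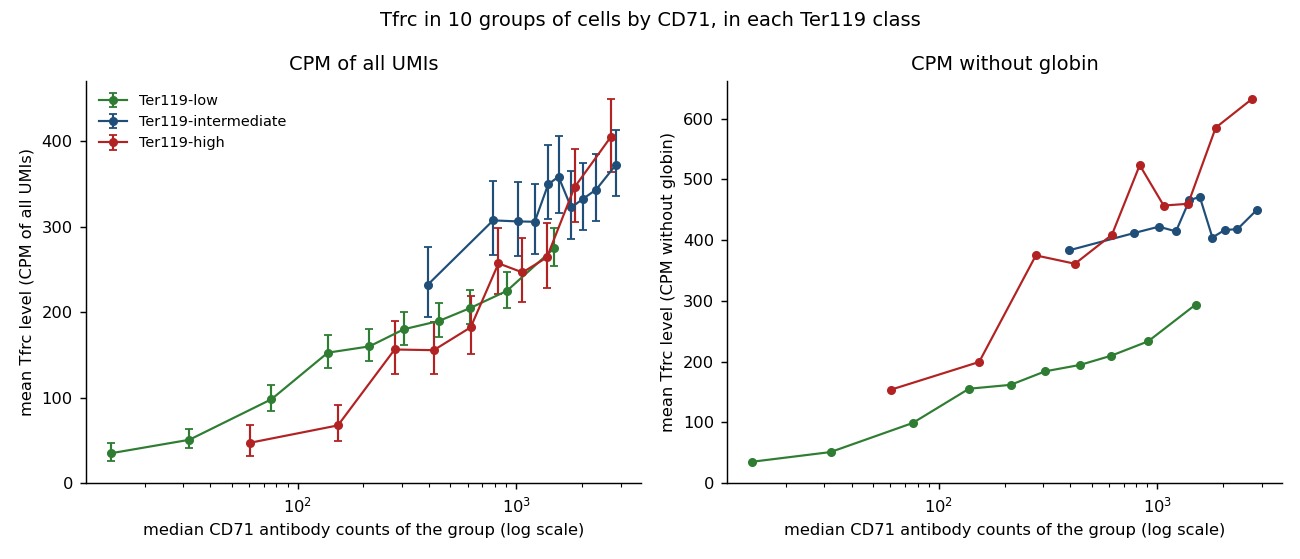
Level of *Tfrc* (y axis, mean over cells, on all UMIs and on UMIs outside the globin genes) against the median CD71 antibody count (x axis, log scale) in 10 equal groups of cells in each Ter119 class, with 95% counting intervals on the first panel. The Ter119-low line runs from 34.9 to 275 CPM and the Ter119-high line from 47.1 to 404 CPM, while the Ter119-intermediate line stays between 232 and 372 CPM.

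Other members also differed between the extreme CD71 groups of the Ter119-low cells. Between the same extreme groups *Fth1* was 3.0-fold higher (2.89 to 3.12), *Steap3* 2.88-fold (1.68 to 4.93), *Slc11a2* 2.30-fold (1.54 to 3.43), *Ftl1* 2.17-fold (2.09 to 2.24) and *Tfr2* 2.07-fold (1.23 to 3.47). *Ireb2* was at 0.817 (0.550 to 1.21), and *Aco1* and *Ncoa4* had too few UMIs. From the fourth group to the highest, *Fth1* went from 3847 to 6936 CPM and *Ftl1* from 4108 to 6774. *Tfr2* went from 37.2 to 27.8 CPM, *Slc11a2* from 54.0 to 48.3 and *Steap3* from 36.5 to 34.5, so these 3 did not rise with CD71 there. The lowest group held 37.1% cells of other named clusters, and the ratios of these members were not taken without them. In the Ter119-intermediate cells *Tfr2* was 11.2-fold higher (2.68 to 46.9), from 2 to 48 UMIs, and *Steap3* 4.18-fold (1.83 to 9.57). The *Tfr2* ratio rested on the lowest group, at 2.73 CPM. From the second group (30.98 CPM) to the highest (30.6 CPM) *Tfr2* lay between 17.4 and 32.9 CPM, without a rise with CD71 in this class. The ferritin genes did not rise with CD71 there, at 1.06 for *Fth1* and 0.936 for *Ftl1* on CPM, and at 0.536 and 0.482 on non-globin CPM. In the Ter119-high cells *Slc11a2* was 5.42-fold higher (2.32 to 12.6), and 2.09-fold on non-globin CPM, while *Fth1* and *Ftl1* were at 1.43 and 1.32 on CPM and at 0.543 and 0.498 on non-globin CPM.

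At matched CD71 the *Tfrc* level depended on the Ter119 class and on the scale. In 8 windows of equal CD71 count that held Ter119-low and Ter119-high cells, the Ter119-high cells had between 0.375 and 1.18 of the *Tfrc* CPM of the Ter119-low cells, but between 1.13 and 2.20 on non-globin CPM and between 0.206 and 0.622 in UMIs per cell. The Ter119-intermediate cells were above the Ter119-low cells on CPM in each of their 5 windows, by 1.26-fold to 1.51-fold, and below them in UMIs per cell, at 0.698 to 0.943. Grouped by Ter119 alone, which does not use CD71, *Tfrc* went from 118 CPM in the lowest of 10 equal groups to 163 in the fourth. It was highest at 333 CPM (313 to 354) in the seventh, with overlapping intervals in the sixth and eighth, and was 152 CPM in the highest group. On non-globin CPM the highest value, 514, was in the eighth group, and in UMIs per cell, 2.33, in the sixth. Over the 10 groups the median CD71 count went from 77 to 1514 in the seventh and was 416 in the highest.

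Antibody counts per *Tfrc* UMI differed between stages, whose CD71 counts are set by the gates. CD71 counts divided by *Tfrc* UMIs came to 126 in S0-low cells, 259 in S0-medium, 550 in S1, 759 in S2, 1011 in S3, 715 in S4-like and 421 in S5-like. The median CD71 count of these stages was 69, 428, 1149.5, 1611, 1398.5, 487.5 and 126, as the gates require. S4-like and S0-medium, with close CD71 medians, had 0.696 and 1.74 *Tfrc* UMIs per cell. On CPM *Tfrc* was at 163 and 191 in these stages, and on non-globin CPM at 377 and 195, in the opposite order. The totals per cell also differed, with medians of 3949.5 and 10282 UMIs. Counts per *Tfrc* UMI were not scaled for these totals or for globin. The IgG control was counted in 3.41% of kept cells, with at most 6 counts.

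**Figure D3:**
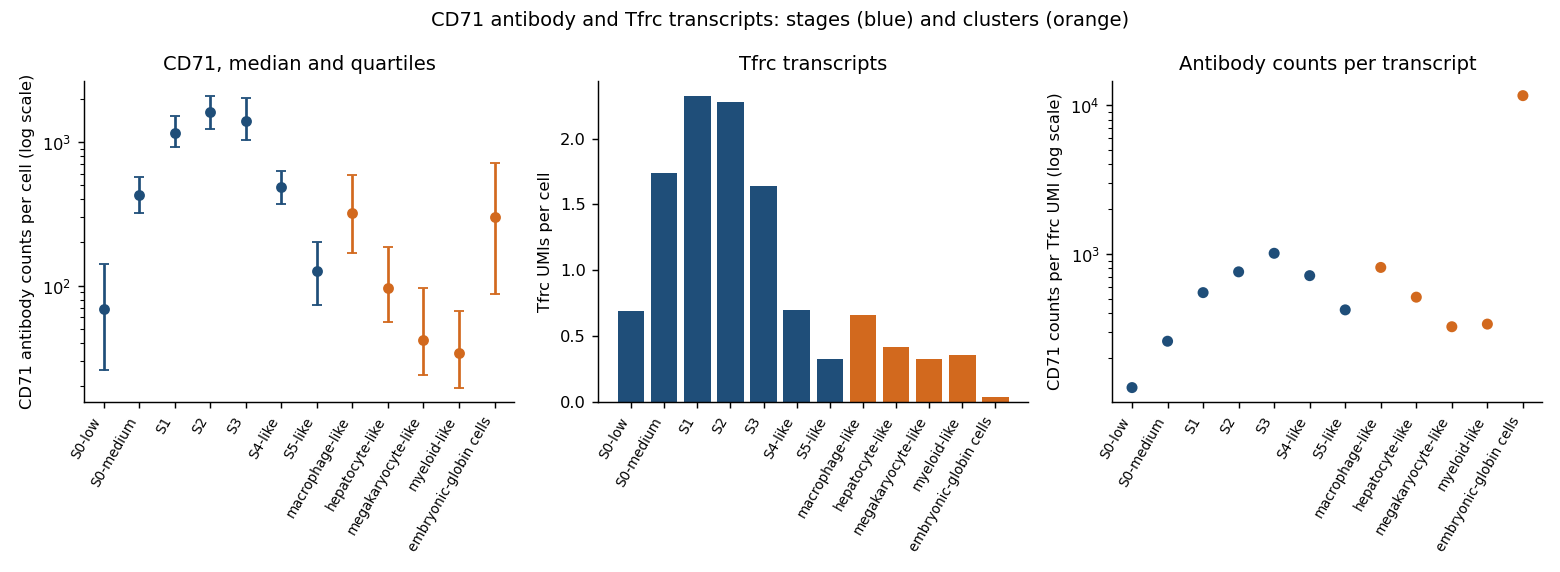
CD71 antibody counts per cell (median and quartiles, log scale), *Tfrc* UMIs per cell (bars from 0) and CD71 counts per *Tfrc* UMI (ratio of means, log scale) in the 7 stages (blue) and in clusters of other cells (orange). Counts per UMI rise from 126 in S0-low to 1011 in S3, and the embryonic-globin cells stand apart at 11618, from 3 *Tfrc* UMIs in 73 cells.

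A cluster of 73 cells led by the embryonic globin genes *Hbb-y* and *Hba-x* differed from the stages in the ferritin genes and in *Tfrc*. For *Tfrc* on non-globin CPM this held for every stage except S0-low. The cluster held 3 *Tfrc* UMIs in all, 8.20 CPM (1.67 to 30.7) and 46.2 non-globin CPM (8.61 to 165). S0-low was at 96.8 non-globin CPM (90.1 to 105), an overlapping interval, and S5-like at 219 (182 to 266). The CD71 counts of the cluster had a median of 300 and a mean of 477, and the mean gave 11618 CD71 counts per *Tfrc* UMI. After thinning to 2000 UMIs, 0 of the 73 cells had a *Tfrc* UMI (95% exact upper limit 4.93%), against 13.7% of S5-like cells and 48.3% of S2 cells. The thinned UMIs include globin, which took 13.1% of UMIs in S2, 68.5% in S5-like and 81.7% in the embryonic-globin cells, so these shares are not on equal non-globin depth. *Tfr2* and *Ncoa4* gave no UMI there, and *Slc11a2*, *Steap3*, *Ireb2* and *Aco1* gave 1 each. The ferritin chains were high, with *Fth1* at 14566 CPM (14167 to 14975) and *Ftl1* at 12660 (12288 to 13042), although globin took 81.7% of the UMIs. These cells made up 6.31% of S5-like, 2.42% of S4-like and 1.55% of S3. Leaving them out moved the *Tfrc* ratio of S5-like over S3 from 0.256 to 0.266 and that of *Fth1* from 0.740 to 0.680.

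The other clusters, named only from their markers, had their own levels of the members. On CPM, macrophage-like cells (80) held the most ferritin, with *Fth1* at 16845 CPM (16459 to 17242) and *Ftl1* at 32933 (32395 to 33480), 0 UMIs of *Tfr2*, and *Tfrc* at 92.6 CPM (67.2 to 128). On non-globin CPM their *Fth1* and *Ftl1* were at 17282 and 33752, below the 80792 and 69921 of the embryonic-globin cells and the 26845 and 34376 of S5-like. They also held *Slc40a1*, the iron exporter, at 2233 CPM and *Hmox1*, heme oxygenase, at 3291 CPM, against 11.4 to 40.1 and 2.43 to 53.2 CPM in the 7 stages. Hepatocyte-like cells (189) had the highest *Aco1*, at 56.0 CPM (45.1 to 70.4), and held *Tfr2* at 32.6 CPM (24.6 to 44.3) and *Trf*, transferrin itself, at 4652 CPM. *Tfrc* was at 34.6 CPM in these cells, 35.1 in megakaryocyte-like (248), 52.2 in myeloid-like (263) and 33.7 in the unnamed cluster (491). After thinning, 2.65% of hepatocyte-like cells had a *Tfrc* UMI, against 16% in S0-low. The median depths before thinning were 13001 and 6146 UMIs. Whether free RNA gave part of these shares was not tested.

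Ratios within the same cells do not depend on the globin share. They are ratios of molecules counted at the 3′ end, without division by length. *Ftl1* to *Fth1* was 1.16 (1.15 to 1.18) in S0-low cells, 0.961 (0.949 to 0.973) in S0-medium, 0.959 (0.945 to 0.973) in S1, 1.03 (1.02 to 1.04) in S2, 1.18 (1.16 to 1.19) in S3, 1.32 (1.29 to 1.35) in S4-like and 1.3 (1.27 to 1.33) in S5-like. The light chain gained on the heavy chain from S1 to S4-like. The S0-low value was 1.02 without the other named clusters, of which those measured lay between 1.61 in megakaryocyte-like and 2.30 in hepatocyte-like cells. The embryonic-globin cells had the lowest ratio, 0.864 (0.831 to 0.899). Adding the copy *Gm10116* to *Ftl1* raised the S1 value to 0.997 and the S4-like value to 1.37. Without the embryonic-globin cells the S4-like value was 1.34 and the S5-like value 1.42.

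*Tfrc* to *Fth1* stayed between 0.0296 and 0.0377 from S0-low to S3, then went down to 0.0206 (0.0183 to 0.0230) in S4-like and 0.0109 (0.00921 to 0.0128) in S5-like. *Tfrc* dropped relative to *Fth1* at the end. In the embryonic-globin cells the ratio was 0.000554 (0.000114 to 0.00162), and in the macrophage-like cells 0.00604 (0.00452 to 0.00791). *Aco1* to *Ireb2* was 0.601 in S0-low cells (0.406 without the other named clusters), 0.384 in S0-medium, 0.318 in S1, 0.333 in S2, then 0.175 (0.0799 to 0.347) in S3, with intervals that overlapped from S0-medium to S3. In hepatocyte-like cells it was 2.60 (1.86 to 3.68).

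**Figure D4:**
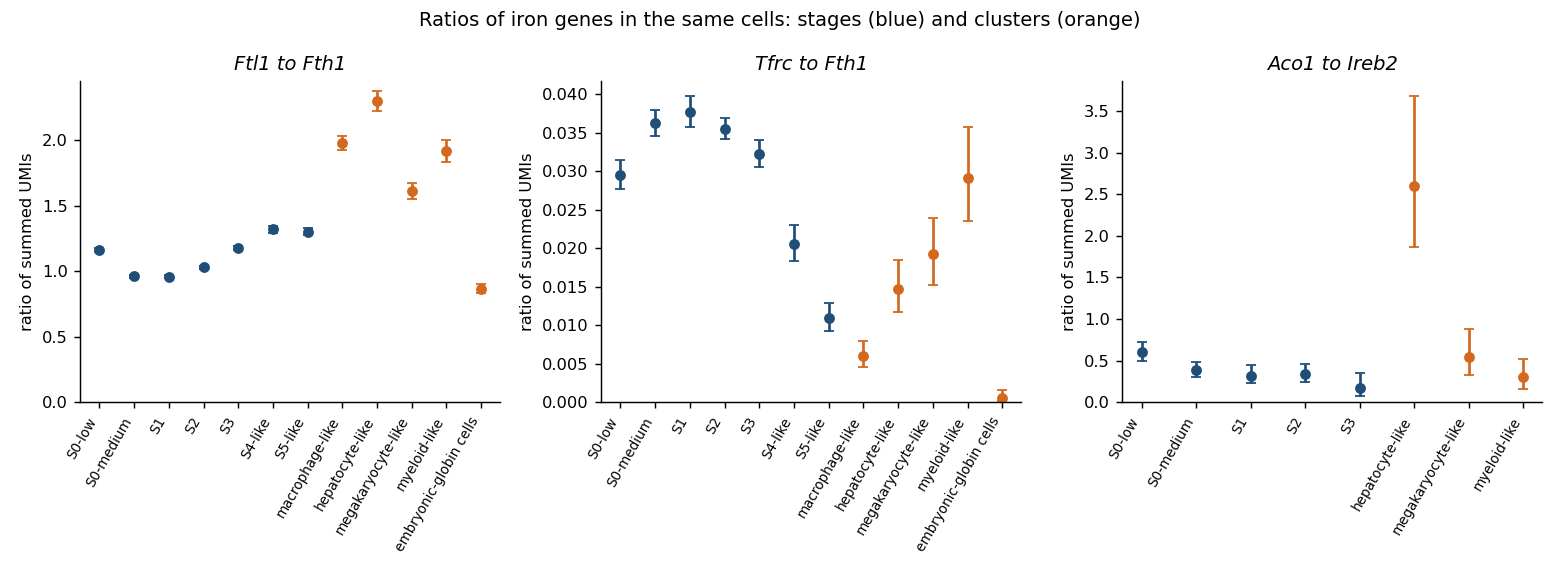
Ratios of summed UMIs of pairs of iron genes in the same cells (y axis, starting at 0) in the stages (blue) and clusters (orange) on the x axis, with 95% exact binomial intervals. *Ftl1* to *Fth1* rises from 0.959 in S1 to 1.32 in S4-like and is 0.864 in the embryonic-globin cells, and *Tfrc* to *Fth1* drops to 0.0109 in S5-like.

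The wider pathway was described from a list of 60 iron genes, of which 59 were in the matrix. From S0-low to S0-medium, 13 of the 48 list genes with 50 UMIs rose and 8 fell, on CPM and on non-globin CPM. Of all genes, 5.67% were higher and 21.8% lower on CPM, and 5.95% and 21.6% on non-globin CPM. The median CPM ratio was 1.18 against 0.944 over all genes. The largest rises were *Slc39a8*, a zinc and iron transporter (2.64-fold), *Alas2* (2.61-fold) and *Abcb10*, a mitochondrial transporter of the heme pathway (2.54-fold). Without the other named and unnamed clusters these were 1.78-fold, 1.96-fold and 1.99-fold. The largest falls were *Trf*, *Steap2*, a metalloreductase, and *Hmox1*, but without the other named clusters the ratio went from 0.0679 to 0.850 for *Trf*, from 0.0787 to 0.373 (0.0648 to 2.15) for *Steap2* and from 0.190 to 0.548 for *Hmox1*. From S0-medium to S1, 5 of 45 rose and 3 fell on CPM, beside 2.98% and 11.2% of all genes (median 1.02 against 0.918). On non-globin CPM 5 rose and 2 fell, beside 3.25% and 10.6%. The rises were led by the mitochondrial iron importer mitoferrin, *Slc25a37*, at 2.07-fold on CPM.

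From S1 to S2, 8 of 45 rose and 7 fell on CPM, beside 5.31% and 38.9% of all genes, with a median of 0.947 against 0.734. On non-globin CPM 13 rose and 5 fell, beside 9.55% and 26.5%. *Alas2* rose 5.27-fold (4.78 to 5.82), to 748 CPM, *Slc25a37* 3.11-fold (2.93 to 3.30) and *Abcg2*, a porphyrin exporter, 2.23-fold (2.04 to 2.44), while *Fdx1*, *Hspa9* and *Lyrm4*, which serve iron-sulfur cluster assembly, fell to 0.385, 0.459 and 0.527. From S2 to S3, 5 of 45 rose and 20 fell on CPM, beside 4.00% and 63.5% of all genes (median 0.694 against 0.587), with *Alas2* up 2.39-fold, to 1786 CPM. On non-globin CPM 8 rose and 7 fell, beside 11.0% and 26.7%. From S3 to S4-like none of 40 rose and 23 fell on CPM, beside 1.29% and 62.7% of all genes (median 0.625 against 0.598), while 7 rose and 9 fell on non-globin CPM, beside 8.93% and 20.5%. Of the 23, 9 were among the 10 uptake genes measured, which had a median of 0.453, and 0.631 on non-globin CPM. From S4-like to S5-like, 1 of 33 rose and 10 fell on CPM, beside 0.923% and 28.9% of all genes (median 0.729 against 0.773). On non-globin CPM 2 rose and 3 fell, beside 5.97% and 10.1%. The gene that rose on CPM, *Hmox1*, was 3.63-fold higher, and 1.12-fold without the embryonic-globin cells, which held it at 415 CPM. On CPM, *Alas2* and *Slc25a37* had their largest rise from S1 to S2.

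**Figure D5:**
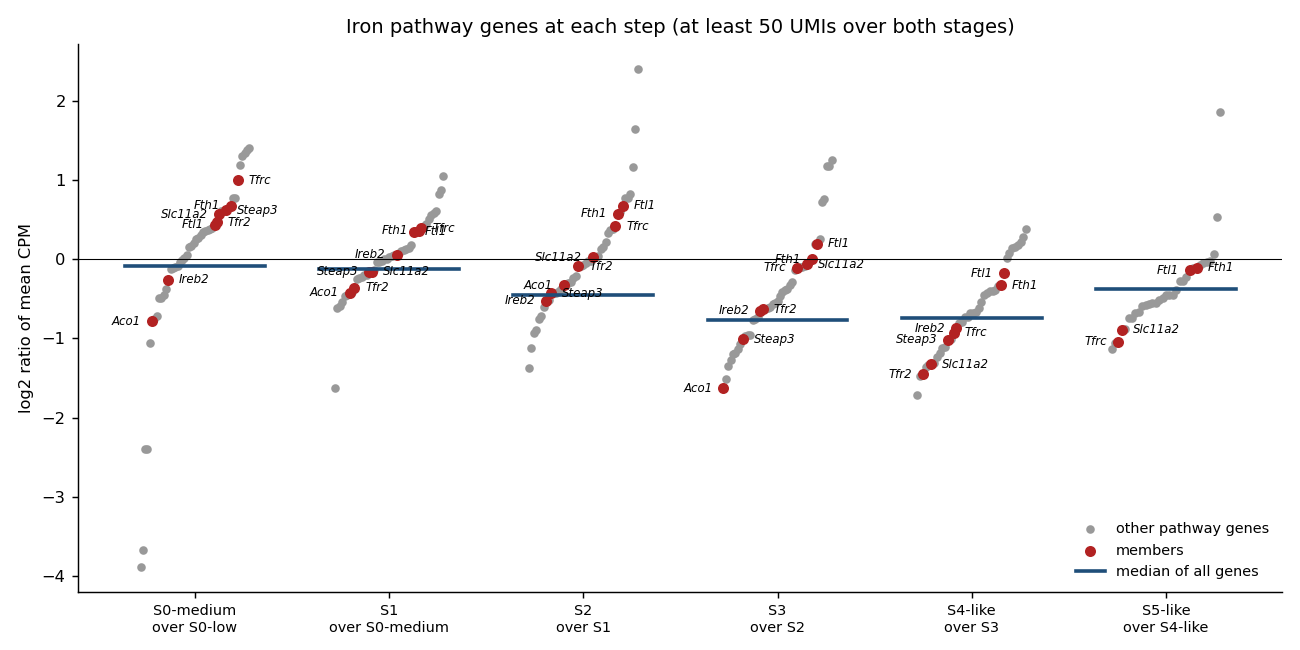
Log2 ratio of mean CPM (y axis) at the 6 steps between neighbouring stages (x axis) for the members (red), the other iron pathway genes with 50 UMIs (grey) and the median of all genes (blue line). The blue line lies below 0 at every step and the members spread around it, with both ferritin genes above it at every step and *Tfrc* below it at the last 2.

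The stage profile of *Tfrc* was most like those of *Gypc*, glycophorin C (r = 0.996), *Cpox*, a heme synthesis enzyme (0.996), *Mtfr1*, a mitochondrial protein (0.994), *Oaz1*, ornithine decarboxylase antizyme (0.991), and *Icam4*, an erythroid adhesion molecule (0.989). Likeness was Pearson's r of log2(CPM + 10) over the 7 stages, which share 1 library and the gates. *Gypc* ran from 63.9 CPM in S0-low to 265 in S2 and 54.0 in S5-like. On non-globin CPM r was 0.508 for *Oaz1* and at least 0.992 for the others. The genes named above were picked for the highest r, and the members were not. On CPM the r of *Tfrc* was 0.73 to *Slc11a2*, 0.61 to *Fth1*, 0.45 to *Steap3* and 0.44 to *Tfr2*. It was 0.41 to *Ftl1*, 0.25 to *Ireb2* and -0.15 to *Aco1*. On non-globin CPM these were 0.72, 0.70, -0.09, -0.07, 0.66, -0.54 and -0.79 in the same order. The closest to each other member were *Arhgap19* and *Nat6* for *Tfr2*, *Nfatc2ip* and *Hist1h1e* for *Slc11a2*, *Dhx16* and *Ppp2r1b* for *Steap3*, *Slc22a4* and *Btg2* for *Fth1*, its copy *Gm10116* and *Narf* for *Ftl1*, *Eno1* and *Ccl25* for *Ireb2* and *Samsn1* and *Snx6* for *Aco1*, with r of 0.992 or more on CPM. Some of these neighbours were not close on non-globin CPM, where r was 0.634 for *Nat6*, at rank 2706 for *Tfr2*, and 0.878 for *Samsn1*, at rank 1502 for *Aco1*. *Ncoa4* had fewer UMIs than the minimum for likeness.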

How the data were processed

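Reads of the 10x 3′ cDNA library were aligned to mm10 by the authors with Cell Ranger, who assigned antibody reads with CITE-seq-Count. The authors deposited raw counts per gene and cell and raw counts per antibody and cell, not normalized and before their cell filters. Whether antibody counts were collapsed by molecular identifier is not given in the sources used here. The members, lists and comparisons were chosen with earlier results of these data known.

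Cells under 300 or over 5000 genes, or above 9% mitochondrial UMIs, were left out, and 128 doublets were removed with the Scrublet method. Ter119 and CD71 were split into classes by k-means on the centered log ratio across cells. These gates stand in for gates whose positions the sources used here do not give. Clusters were made with the Leiden method, and the rule that names them from markers was set after they were seen. Intervals of levels are weighted Poisson intervals, shares and ratios within cells have exact binomial intervals, and neither covers more than counting error. The named genes were the 9 members, up to 3 list genes each way per step past 1.5-fold, and the 5 (*Tfrc*) or 2 genes most like each member, except *Ncoa4*. Likeness took genes with at least 200 UMIs over the stages. On simulated counts for S3 over S1 (7593 genes), all 200 changed genes had the right direction and 187 intervals held the true ratio. These counts held counting error only, without variation between cells beyond depth and without the shift of globin. They check the intervals for such counts alone. Hairpins were read from GENCODE M1 (mm9) and gene positions from RefSeq. Python 3.11.15, scanpy 1.11.5, numpy 2.4.6 and scipy 1.17.1 were used. The result of 1 list gene is not reported here.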

Additional observations from a re-analysis of the deposited data

How the results depend on the processing

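With 1 library, no replicate could be left out. No paired analysis was possible because there was 1 library and no result came from a test. The ratio of *Tfrc* in S3 over S0-low, 3.24 as reported, was 5.58 on non-globin CPM, 2.37 in UMIs per cell and 8.01 with median-of-ratios size factors. It was 7.10 with gates on log10 counts, 6.49 with gates on the log ratio within cells, 6.87 with Gaussian mixture gates and 3.96 with no lineage limit. It was 2.75 without the other named clusters and, in an alternative chosen after seeing the data, 2.30 without these and the unnamed cluster. The ratio of *Tfrc* between extreme CD71 groups in Ter119-low cells (7.88) was 14.6 in UMIs per cell and 5.84 with 5 groups. It was 12.4 with CD71 as a share of antibody counts. In an alternative again chosen after seeing the data, it was 3.24 without the other named and unnamed clusters, with the groups drawn again. The 103 calls of list genes over the 6 steps became 46 at 2-fold and 160 with no UMI minimum. The *Ftl1* to *Fth1* ratio in S4-like (1.32) was 1.37 with copies summed. Of the 5 genes most like *Tfrc*, 3 stayed among the first 5 on non-globin CPM.

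Of 1342 alternative values, 955 moved little, 374 moved further, and 13 turned the direction of a called ratio. Values that moved further could keep their side, as *Tfrc* in S3 over S0-low did at 5.58 on non-globin CPM. Of 1232 alternative values, mostly ratios, called or not, 61 changed direction, among them 19 of 88 with size factors and 11 of 91 on non-globin CPM. These totals also hold the counts of list genes higher and lower over the 6 steps, which have no direction. The 13 turns of called ratios are listed next, and their cause was not tested. With size factors, *Tfr2* was at 1.07 and *Ireb2* at 1.10 in S3 over S2, *Steap3* at 1.01 in S4-like over S3, and *Tfr2*, *Steap3* and *Ireb2* at 1.64, 1.39 and 1.16 in S3 over S0-low. On non-globin CPM, *Ireb2* was at 1.10 in S4-like over S3 and *Tfr2* at 1.10 in S3 over S0-low. With gates on log10 counts, *Tfr2* was at 1.17 in S3 over S0-low and *Abcb8* at 1.0 in S1 over S0-medium. From S0-low to S0-medium, *Hmox1* was at 1.69 with Gaussian mixture gates, and *Steap2* and *Trf* were at 1.3 and 1.75 with gates on the log ratio within cells. Depth limits *Ncoa4* in all stages and *Aco1*, *Ireb2*, *Tfr2* and *Steap3* in the last 2.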
